A study of Drosophila melanogaster with 2 samples.

Results

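Mitochondrial ribosomal protein genes are taken here as the protein-coding genes of the fly annotation whose symbols start with mRpL or mRpS. There were 73 of them among 13968 protein-coding genes on the major chromosome arms, 47 for the large subunit (mRpL) and 26 for the small subunit (mRpS). The data were peaks of a chromatin immunoprecipitation of CG4360, a zinc finger protein of the transcription factor type, from whole Drosophila melanogaster embryos aged 0 to 24 h. The flies carried an insertion targeting CG4360 and expressed the protein fused to enhanced green fluorescent protein (CG4360-eGFP). The fusion was pulled down with an antibody against GFP, while another label field gives the antibody as CG4360. There was 1 group with 2 biological replicates. The control experiment that the labels point to was not analysed here, and which embryonic cells made the fusion is not stated in the labels. Whole embryos of this age span mix all embryonic tissues and stages.

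The mitochondrial ribosome translates the few messenger RNAs encoded in mitochondrial DNA, which specify core subunits of the respiratory chain and the ATP synthase. Its RNA comes from mitochondrial DNA, whereas its proteins are encoded by nuclear genes that lie scattered over the chromosomes, are made on cytosolic ribosomes and are imported. Many of the proteins have counterparts in bacterial ribosomes, and the others are additions of the mitochondrial lineage.

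For each gene, the summit (the point of highest signal) of every deposited peak was compared with the annotated transcript starts, and a gene was called when a summit lay within 500 bp of any of its starts. The authors deposited 4 lists of peaks filtered on the irreproducible discovery rate (IDR), which is low for peaks whose rank repeats between data sets. They are a list that compares the true replicates (conservative), a second list from both replicates (pooled) and a list for each replicate. Each has a longer ranked list that also holds the calls below the threshold. The signal is the authors' value for a peak, on a scale the sources do not state, and it is compared within a list. On the major arms the thresholded lists held 5692 conservative, 6193 pooled, 4519 replicate 1 and 3678 replicate 2 peaks, with median signals of 104, 97.4, 68.8 and 69.4. The read depth behind the lists is unknown.

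Conservative summits were called at 13 of the 73 genes, which is 17.8% (exact binomial 95% interval 9.84 to 28.5), beside 15.9% of all protein-coding genes. The order of these shares depends on how summits are given to genes, since 8 members (11.0%) were called within 250 bp, beside 12.1%, and 5 (6.85%) when a summit counted only for the gene with the nearest start, beside 12.9%. The DNA under them was of several kinds. The sequences below show what lay at 8 of them. Each is given 5′ to 3′ on the coding strand of the gene, from the RefSeq copy of the dm6 (release 6) genome, and capitals mark CAACAAC or its reverse complement GTTGTTG, the word searched for because it is frequent at conservative summits in general. The first set are windows of 101 bases centred on the summit in intergenic DNA: mRpS10 (chr3R:15229486-15229586, plus strand), mRpS23 (chr2L:13835435-13835535, minus), mRpL20 (chr3L:13018112-13018212, minus), mRpL24 (chr2L:4945421-4945521, minus), mRpS2 (chr2L:4850497-4850597, minus) and mRpL32 (chr3R:31252692-31252792, plus). None of these holds the word.
mRpS10: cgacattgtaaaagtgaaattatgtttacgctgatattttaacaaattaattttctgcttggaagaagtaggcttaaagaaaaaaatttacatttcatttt
mRpS23: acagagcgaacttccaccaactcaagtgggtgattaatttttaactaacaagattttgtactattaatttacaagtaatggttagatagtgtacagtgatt
mRpL20: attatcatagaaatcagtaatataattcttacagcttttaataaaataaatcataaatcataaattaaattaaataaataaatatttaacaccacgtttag
mRpL24: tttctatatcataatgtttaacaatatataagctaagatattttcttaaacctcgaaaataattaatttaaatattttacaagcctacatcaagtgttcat
mRpS2: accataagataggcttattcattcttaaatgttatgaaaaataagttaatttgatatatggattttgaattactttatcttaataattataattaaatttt
mRpL32: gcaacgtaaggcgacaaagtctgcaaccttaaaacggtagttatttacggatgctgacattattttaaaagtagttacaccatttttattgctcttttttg

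The second set hold the word, and they are shown because promoter summits with it had a median signal of 209 in the conservative list, beside 87.5 without it. The window at mRpL13 (chr2L:18858810-18858910, minus strand) lies in an intron, and the 30 bases at mRpL33 (chrX:4322654-4322683, minus) lie in the 5′ UTR of the neighbouring gene norpA.
mRpL13: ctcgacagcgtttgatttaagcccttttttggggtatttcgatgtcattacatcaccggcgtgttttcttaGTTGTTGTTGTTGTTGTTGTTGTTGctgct
mRpL33: tttgttgtctGTTGTTGTTGgtttccgcag

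In the other thresholded lists the members were called at similar or somewhat higher shares. The pooled list called 16 (21.9%, interval 13.1 to 33.1) beside 17.1% of all protein-coding genes. Replicate 1 called 16 (21.9%) beside 13.2%, and replicate 2 called 11 (15.1%, interval 7.77 to 25.4) beside 10.6%. Both replicates called 11 members (15.1%) beside 9.14% of all protein-coding genes. The replicate 1 list alone called another 5 members (6.85%), beside 4.09% of all protein-coding genes. The replicate 2 list called no member that replicate 1 did not, beside 1.45% of all protein-coding genes. In all, 11 members (15.1%) were in all 4 lists, beside 9.05% of all protein-coding genes. The conservative and pooled lists were derived from both replicates, so the lists are not independent of each other. In each of the 4 lists the members' interval covered the share of all protein-coding genes, and the share for all genes in replicate 1 lay at the lower edge of that interval.

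**Figure D1:**
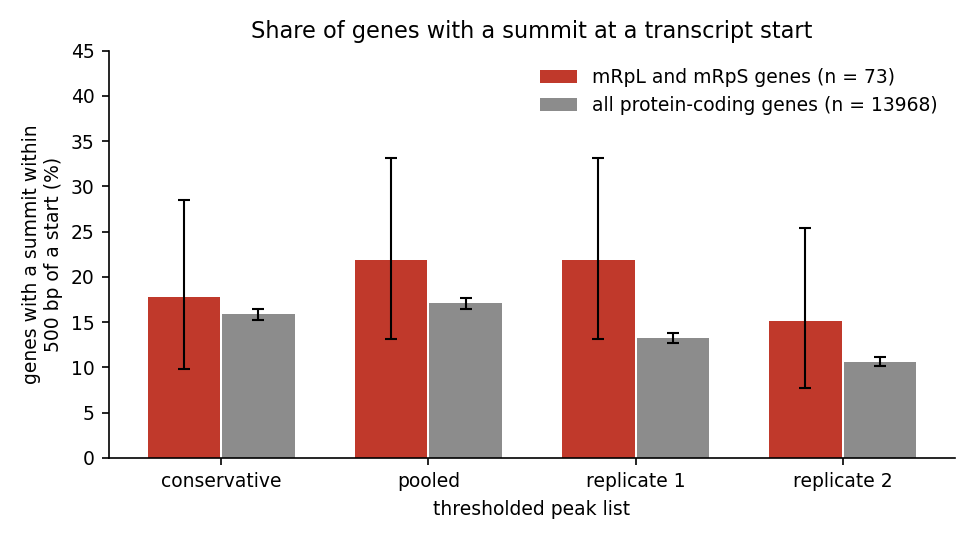
Percentage of genes called, with a 500 bp limit from summit to start, in each thresholded list, for the 73 mRpL and mRpS genes and for all 13968 protein-coding genes. Bars are shares and lines are exact binomial 95% intervals, which cover counting error only; the members' intervals are wide and include the share for all genes in every list.

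Signals at the called members ranged from below the middle of the conservative list to near its top. Of the 13, mRpL32 (94.7) and mRpS33 (66.3) were under the list's median of 104. The strongest conservative summit per called gene had a median signal of 200 (quartiles 116 and 468, range 66.3 to 602.5) at the 13 members, beside a median of 120 (quartiles 80.3 and 228) at the 2214 called protein-coding genes. In the replicates' own lists the medians were 90.9 beside 78.1 in replicate 1 and 117 beside 77.8 in replicate 2. The medians come from few members, and 5 of them carry the high values.

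The highest signal was at mRpS10, which encodes a protein of the head of the small subunit. Its summit (3R, position 15229536) had a signal of 602.5 in the conservative list, rank 239, above 95.8% of the conservative peaks. Replicate 1 gave 243.3 and replicate 2 gave 364.5 for the same site, so it was strong in both. The summit lay 129 bp upstream of the mRpS10 start and 128 bp upstream of the start of Art3, an arginine methyltransferase gene on the other strand. The starts are 257 bp apart, so the summit stood at the middle of the gap (0.5 bp from it).

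The next were mRpS23 and mRpL41. The mRpS23 summit (2L, position 13835485) had a signal of 536.9, rank 298, and 271.0 and 263.4 in replicates 1 and 2. It lay 413 bp upstream of mRpS23 and 79 bp upstream of CenG1A, which encodes a GTPase-activating protein of the centaurin gamma family. At mRpL41 the summit (2R, position 15217778) had a signal of 525.5, rank 311, with 224.6 in replicate 1 and 310.6 in replicate 2. It stood 161 bp upstream of the mRpL41 start, the nearest start of any gene, inside a gap of 762 bp to the divergent gene CG8079. An annotated long noncoding RNA, lncRNA:CR44463, starts 417 bp away.

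At mRpL34 the summit (2R, position 16098528) had a signal of 467.8, rank 390, with 308.1 in replicate 1 and 164.7 in replicate 2. It was 420 bp upstream of mRpL34 but 36 bp inside Dg, the dystroglycan gene, in its 5′ UTR. It held CAACAAC. The mRpL23 summit (3L, position 2373620) had a signal of 391.7, rank 514, with 155.3 in replicate 1 and 228.6 in replicate 2. It stood 58 bp downstream of an mRpL23 start in its 5′ UTR. mRpL23 encodes a protein that in bacteria sits at the exit of the peptide tunnel, and the divergent gene CG9004 starts 108 bp from the summit. These 5 genes all ranked above 90% of the conservative peaks, mRpL23 with the lowest share below it at 91.0%.

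Signals from 100 to 300 were found at 6 members. The mRpL13 summit in the intron shown above had a signal of 270.8, with 155.6 in replicate 1 and 117.0 in replicate 2. It was 388 bp downstream of a start that mRpL13 shares with CG10602, and its run of CAA repeats was 24 bp long. Replicate 1 called a second summit at 169 bp there, with a signal of 49.5. The mRpL20 summit had 199.8, with 92.2 and 105.8 in the replicates, and lay 295 bp upstream of mRpL20 and 104 bp upstream of Icmt, the isoprenylcysteine carboxyl methyltransferase gene.

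The mRpL24 summit had 185.1, with 89.5 and 96.1 in the replicates, 110 bp upstream of mRpL24 and 108 bp upstream of betaggt-I, a beta subunit gene of a protein prenylation enzyme. The mRpS2 summit had 169.1, with 110.0 in replicate 1 and 54.4 in replicate 2, 128 bp upstream of mRpS2 and 94 bp upstream of Mon1, a gene of endosomal trafficking. The mRpL33 summit had 116.4, with 72.8 and 36.2, 416 bp upstream of mRpL33 and 21 bp inside norpA, the phospholipase C gene of phototransduction. The mRpS28 summit had 113.0 and lay 67 bp upstream of mRpS28 and 25 bp inside CG5323. Replicate 1 called it at 74.9, and replicate 2 held it only in its ranked list, at 41.4.

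The weakest conservative summits were at mRpL32 and mRpS33. The mRpL32 summit had 94.7, with 38.5 in replicate 1 and 57.9 in replicate 2, 130 bp upstream of mRpL32 and 134 bp upstream of qless, a prenyl diphosphate synthase gene of coenzyme Q synthesis. The mRpS33 summit had 66.3, rank 4678, above 17.8% of the conservative peaks. Replicate 1 called it at 46.7 and replicate 2 held it only in its ranked list, at 28.1. It was 20 bp downstream of the mRpS33 start in its 5′ UTR, with no other gene's start within reach. Its −log10 IDR of 2.19 was just over the threshold of 2.

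**Figure D2:**
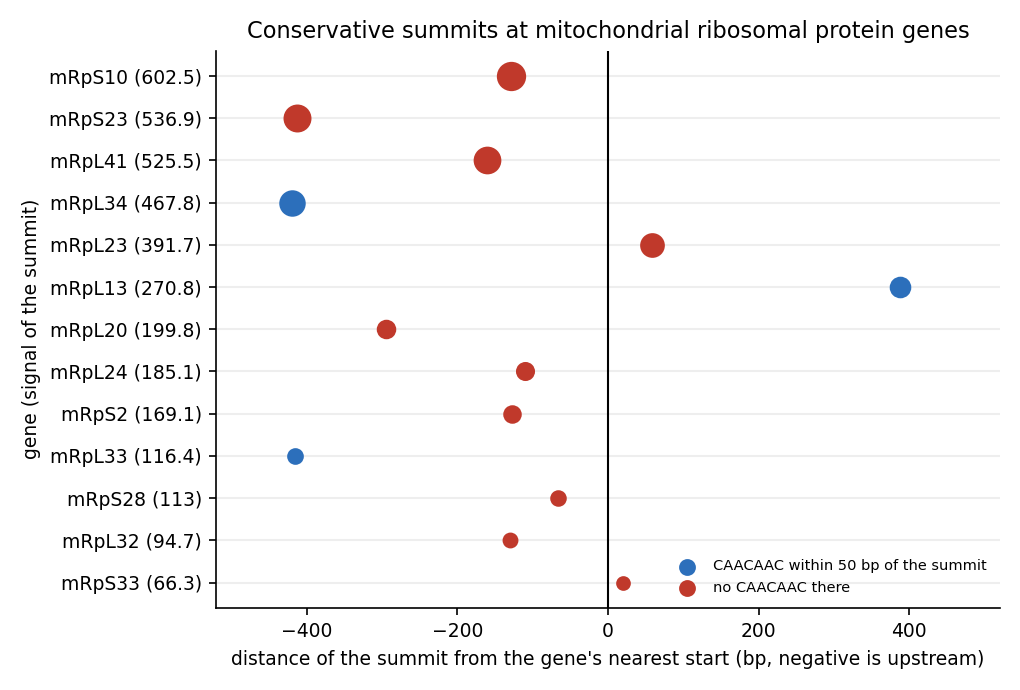
Distance of the 13 conservative summits from the member's nearest start in bp, in order of signal, which is given in brackets; larger dots have higher signals. Dots are blue where CAACAAC lay within 50 bp of the summit (mRpL34, mRpL13 and mRpL33) and red elsewhere; 10 summits lie upstream of the start and 3 downstream.

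Another 3 members had a summit in the pooled and replicate 1 lists but not in the conservative or replicate 2 lists. At mRpL48 the pooled signal was 70.1 at 184 bp upstream, inside coding sequence of the divergent gene CG17660, and replicate 1 gave 42.1. At mRpL52 the pooled signal was 61.6 at 71 bp upstream and 21 bp inside CG12107, and replicate 1 gave 38.7. At mRpL4 the pooled summit lay 400 bp downstream in coding sequence with a signal of 49.6, whereas the replicate 1 summit, at 39.2, lay 169 bp upstream. All 3 were weaker in the pooled list than its median of 97.4.

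The remaining 57 members (78.1%) were in no thresholded list, beside 81.0% of all protein-coding genes. Of these, 52 (71.2% of members) had a call in the conservative ranked list, beside 58.4% of all protein-coding genes. In that list 68 of 73 members (93.2%) had a call within 500 bp, beside 77.4% of all protein-coding genes. The pooled ranked list called 66 (90.4%) beside 77.3%, the replicate 1 ranked list 61 (83.6%) beside 67.4% and the replicate 2 ranked list 64 (87.7%) beside 67.5%. The median of the strongest conservative ranked signal was 44.2 at members with a call (quartiles 31.0 and 56.8), beside 35.4 at all genes with one (quartiles 23.2 and 56.2). Ranked lists reach calls with a signal of 2, so a call there is a weak statement about a single gene.

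Among the members below every threshold, the highest conservative ranked signal was 60.9 at mRpL14, with 37.2 in replicate 1 and 19.2 in replicate 2. Its −log10 IDR in the conservative ranked list was 0.84, where the threshold is 2. mRpS22 followed with 58.9, with 30.7 and 25.6 in the replicates, and a −log10 IDR of 1.82 in that list. mRpL18 had 53.1 with a −log10 IDR of 1.74, and mRpS31 had 49.6 with 1.53. The others of the 10 were mRpL2 (56.1), mRpL11 (55.4), mRpS26 (53.9), mRpL22 (52.2), mRpL51 (51.4) and mRpL53 (48.0). Their −log10 IDR in that list was lower, at 0.79, 1.26, 0.18, 0.79, 0.18 and 0.24 in the same order. In these 10, signals lay between 22.1 and 42.3 in replicate 1, which held no call at mRpS26, and between 3.0 and 38.4 in replicate 2. The lowest conservative ranked signal was 4.9, at mRpS30. No conservative ranked call was present at mRpL10, mRpL21, mRpL36, mRpL50 and mRpS5, and mRpL10 and mRpL50 had no call in any list. Replicate values for all members with a call in both are shown in the plot of replicate signals.

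**Figure D3:**
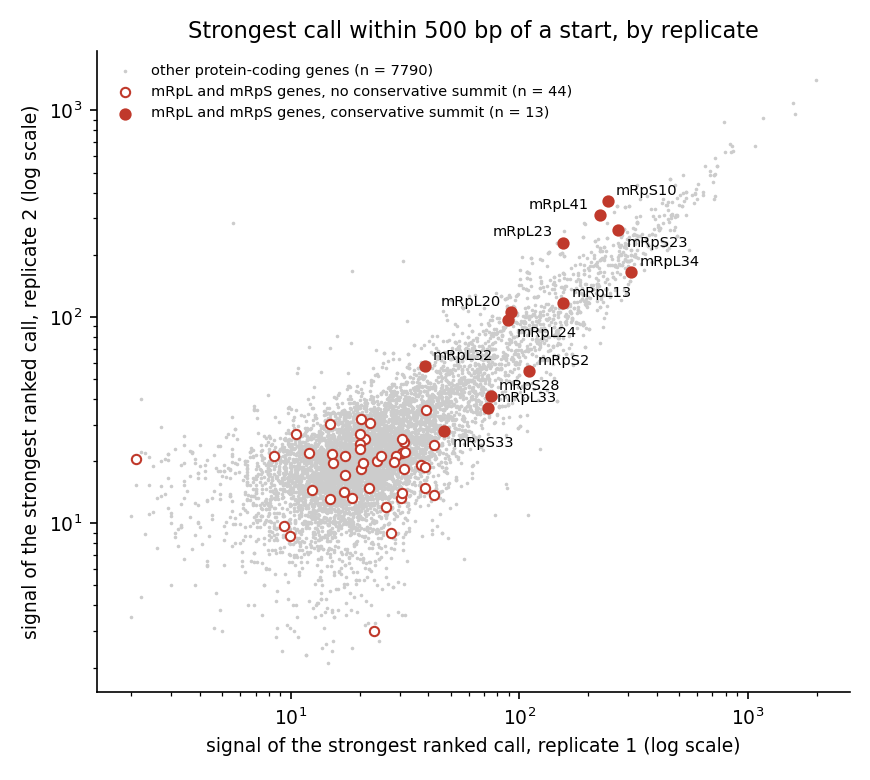
Signal of the strongest ranked call within 500 bp of a start in replicate 1 against replicate 2, both on log scales, for genes with a call in both. Filled red points are the 13 members with a conservative summit, open red points 44 members without one and grey points 7790 other protein-coding genes; the filled points run from 38.5 (mRpL32) to 308.1 (mRpL34) in replicate 1 and from 28.1 (mRpS33) to 364.5 (mRpS10) in replicate 2.

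The called members were spread over both subunits. Conservative summits were called at 8 of 47 large subunit genes (17.0%) and 5 of 26 small subunit genes (19.2%). Genes whose numbers belong to the bacterial series were called at 9 of 42 (21.4%) and genes with higher numbers at 4 of 31 (12.9%). By arm the counts were 4 of 12 on 2L (beside 14.5% of all protein-coding genes of that arm), 3 of 12 on 2R (16.2%), 2 of 17 on 3L (17.5%), 3 of 21 on 3R (14.8%) and 1 of 11 on X (16.9%), the last being mRpL33. Most members have a single annotated start, with a mean of 1.10 starts beside 1.41 for all protein-coding genes, and a gene with more starts has more chances of a call. Among genes with 1 start, 11 of 67 members (16.4%) were called beside 10.8% of 10269 genes.

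Most of these genes stood head to head with a neighbour. A divergent neighbour, with its start within 1000 bp upstream on the other strand, was annotated for 58 of 73 members (79.5%), beside 39.6% of all protein-coding genes. Each of the 58 neighbours was protein-coding, and no pair joined 2 members. The median gap was 283 bp, beside 298 bp. Summits were called at 11 of the 58 (19.0%) beside 23.0% of all genes with such a neighbour, and at 2 of the 15 others (13.3%) beside 11.2%. Conservative ranked calls also differed by neighbour. They were present at 56 of the 58 (96.6%) beside 86.2%, and at 12 of the 15 others (80.0%) beside 71.6%.

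A summit seldom had the member's start alone within reach. Another gene started within 500 bp of the summit at 12 of the 13 called members (92.3%). This compares with 43.3% of the called genes in general and 52.6% of those with 1 start. These comparisons are not limited to genes with a divergent neighbour, which 11 of the 13 have. The member's own start was the nearest start, or tied for it, at 5 of 13 (38.5%), beside 79.8% of called genes and 72.1% of those with 1 start. The 5 were mRpL13, mRpL23, mRpL32, mRpL41 and mRpS33. The neighbour's start was only just nearer at mRpS10 (128 beside 129 bp) and mRpL24 (108 beside 110 bp). In replicate 1 the member's own start was nearest at both, and in replicate 2 at mRpL24 but not at mRpS10. The median distance to the member's start was 130 bp, beside 149 bp. The outermost called summits were those of mRpL34, mRpL33 and mRpS23, at 420, 416 and 413 bp. The nearest conservative summits left out by the limit were at 950 bp from mRpL53, 1194 bp from mRpL18 and 1293 bp from mRpL27. mRpL27 there stood near RpL27A, a cytosolic ribosomal protein gene 8 bp from the summit.

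In the gaps themselves, 41 divergent pairs with a member and a gap of 100 to 1000 bp were examined. Of these, 8 (19.5%) had a conservative summit between the starts, beside 255 of 2536 pairs with any protein-coding gene (10.1%). Among the 8 was mRpS28 with CG5327, 970 bp apart, where the summit lay inside CG5323, which starts between them. Of those 8 summits, 4 stood within 20 bp of the middle of the gap, beside 20.4% of the 255. They were at mRpS10 (0.5 bp from the middle), mRpL24 (1.0 bp), mRpL32 (2.0 bp) and mRpS2 (17.0 bp). The authors' peaks at mRpL24, mRpL32 and mRpS2 were 390 bp wide, as were 78.6% of the conservative peaks, and 99.9% of the peaks of that width had the summit within 1 bp of their centre. The summit of such a peak is therefore the centre of a call of uniform width. Among the 13 member peaks, 6 had this width and signals of 66.3 to 185.1, and the other 7 were 116 to 240 bp wide with signals of 199.8 to 602.5. Neither replicate's own list had the mRpL32 summit at the middle: it was at 48 bp upstream in replicate 1 and 71 bp upstream in replicate 2, instead of 130 bp. At mRpS10 the summits of both replicates stood within a few bases of the middle, at 126 and 133 bp upstream.

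CAACAAC was counted on either strand within 50 bp of the summit. It was present at 3 of 13 (23.1%), beside 788 of 2147 conservative summits within 500 bp of a protein-coding start (36.7%) and 45.1% of all conservative summits. Around the starts themselves, the word lay within 500 bp of a start at 10 of 73 members (13.7%), beside 27.9% of all protein-coding genes. Summits were called at 4 of these 10 (40.0%) beside 34.0%, and at 9 of the 63 without it (14.3%) beside 8.82%. A gene with more starts has more chances of holding the word. Among genes with 1 start it lay there at 9 of 67 members (13.4%) beside 21.5%. Of these members, 4 of 9 with the word (44.4%) were called beside 24.8%, and 7 of 58 without it (12.1%) beside 7.01%. With counts of this size the shares of called genes are imprecise.

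Several of the strong summits without the word lay in AT-rich DNA. GC content within 50 bp of the summit had a median of 31.7% at the 13 members, beside 44.6% at promoter summits. A limit of 25% GC, chosen after the values were seen, held 6 of the 13 (46.2%), beside 122 of 2147 (5.68%). A limit of 30% held the same count of members, beside 267 promoter summits (12.4%). The 6 were mRpL20 (15.8%), mRpS2 (16.8%), mRpL24 (20.8%), mRpL23 (22.8%), mRpL41 (23.8%) and mRpS10 (24.8%), and the windows of 4 of them are among those shown above. None of the 6 held CAACAAC, and neither did 119 of all 122 promoter summits at or under 25% GC. Their median signal was 296, beside 123 for the 119 AT-rich promoter summits without the word, and the highest signal among these 119 was that of mRpS10. In windows reaching 100 bp to each side, none of the 13 was at or under 25%. The part of base composition in these signals was not tested.

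**Figure D4:**
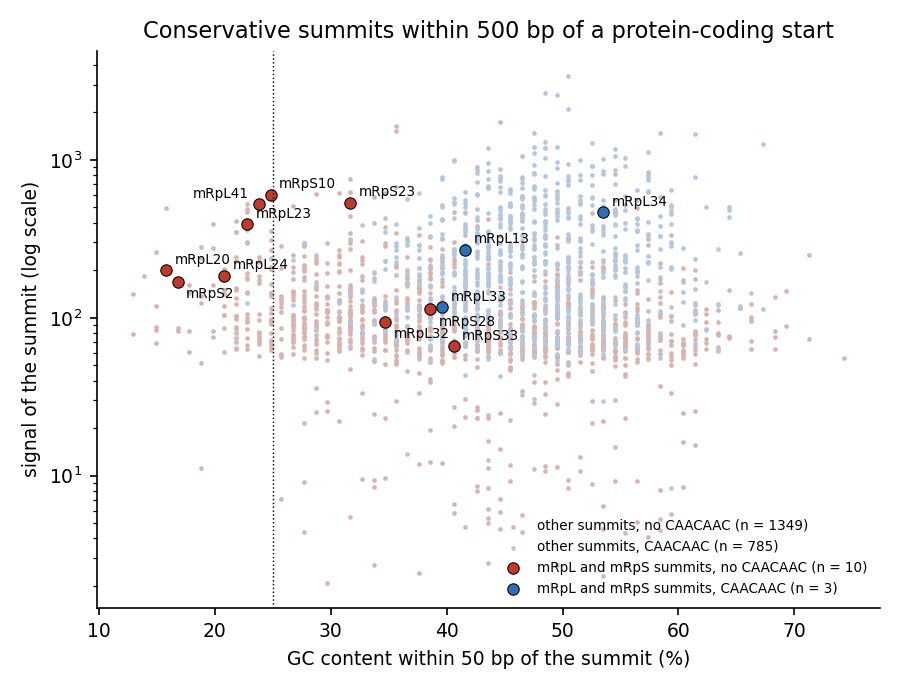
GC content within 50 bp of the summit in percent against the signal of the summit on a log scale, for conservative summits within 500 bp of a protein-coding start. Large dots are the 13 member summits and small dots 2134 other summits, blue with CAACAAC and red without; left of the dotted line at 25% GC stand mRpL20, mRpS2, mRpL24, mRpL23, mRpL41 and mRpS10.

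A different short sequence was common at the starts of the family. CAGCTG, which reads the same on both strands and is the core of an element known from fly core promoters, lay between 250 bp before and 50 bp after a start at 41 of 73 members (56.2%), beside 3110 protein-coding genes (22.3%). Within 50 bp of a start, a limit added after the data were seen, it was found at 36 members (49.3%) beside 12.1%. The share was 57.4% in the large and 53.8% in the small subunit. It was 55.2% in members with a divergent neighbour, beside 27.2% of all genes with one, and 60.0% in the others, beside 19.0%. Among cytosolic ribosomal protein genes it was present at 11 of 92, and among respiratory chain genes at 27 of 86 (31.4%). The sites below, 30 bases on the coding strand of each gene with CAGCTG in capitals, show its position in called members: mRpS2 (chr2L:4850413-4850442, minus), mRpL24 (chr2L:4945324-4945353, minus), mRpL23 (chr3L:2373715-2373744, minus), mRpL32 (chr3R:31252844-31252873, plus), mRpL33 (chrX:4322207-4322236, minus) and mRpS33 (chr3R:16436566-16436595, minus).
mRpS2: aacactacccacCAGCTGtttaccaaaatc
mRpL24: ttcagttctcaaCAGCTGattgcaagccgc
mRpL23: gtggttgacaatCAGCTGtttaaaacaagt
mRpL32: atatcgatagcaCAGCTGtttcctcttgcg
mRpL33: gataggcgcagtCAGCTGttcttcgttcct
mRpS33: gcacttggaaatCAGCTGtcgcttgttttt

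In these genes the centre of CAGCTG was 8.5 bp upstream of the start at mRpS2, 25.5 bp upstream at mRpL23 and 13.5 bp upstream at mRpL32, and 22.5, 9.5 and 16.5 bp downstream at mRpL24, mRpL33 and mRpS33. The other members with a conservative summit and CAGCTG are not shown. It lay 40.5 bp downstream at mRpL13, 31.5 bp upstream at mRpS28 and 6.5 bp upstream at mRpL41. The first 25 bp of the transcript held the nearest copy at 19 members (26.0%), beside 3.85% of all protein-coding genes. Conservative summits were called at 9 of the 41 members with it (22.0%), beside 24.6% of all genes with it, and it lay within 50 bp of 2 of the 13 member summits (15.4%), at mRpS28 and mRpS33, beside 6.57% of promoter summits. In the replicate 2 list, which called neither gene, it lay at 0 of 11 member summits, beside 97 of 1426 promoter summits. TATCGATA, the DNA replication-related element, was in the same span before and after the start at 16 members (21.9%) beside 10.2% of all genes, and in mRpL32 it stands just before CAGCTG in the site shown. Shares for the other words, again on either strand, were 17.8% beside 36.2% for GAGAG, 11.0% beside 8.69% for GGTCACAC, 6.85% beside 5.29% for CACGTG and 1.37% beside 1.45% for GCGCATGC. Among genes with 1 start these were 14.9% beside 28.1%, 10.4% beside 7.62%, 2.99% beside 4.37% and 1.49% beside 0.974%, in that order. Among the same genes CAGCTG was at 56.7% beside 17.7% and TATCGATA at 22.4% beside 9.16%. These matches are descriptions of sequence, and no binding of any factor to them was measured.

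**Figure D5:**
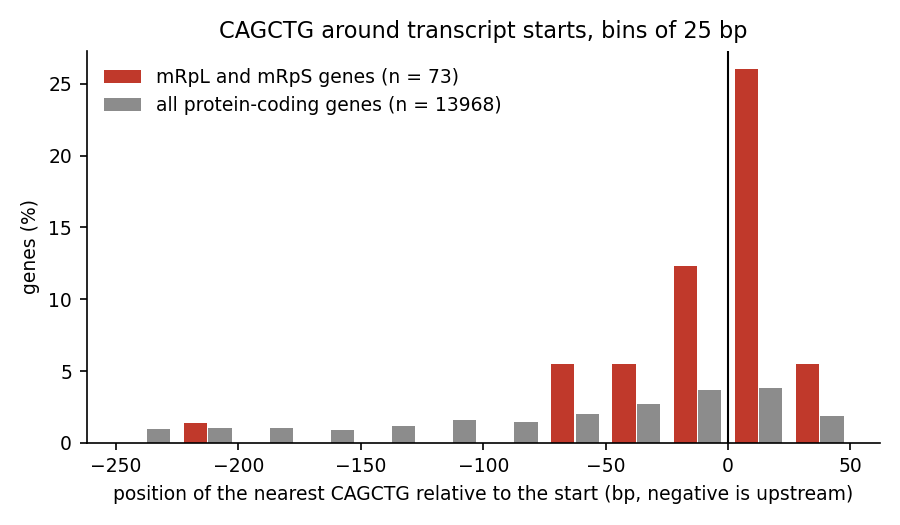
Percentage of genes whose nearest CAGCTG falls in each 25 bp bin from 250 bp before to 50 bp after a start, for the 73 mRpL and mRpS genes and all 13968 protein-coding genes. The tallest bin for the members is the first 25 bp after the start, with 26.0% beside 3.85%.

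Other gene groups of mitochondrial and cytosolic translation gave different shares. Conservative summits were called at 52 of 92 cytosolic ribosomal protein genes (56.5%, exact binomial 95% interval 45.8 to 66.8), with a median signal of 85.3. That share is higher than the 17.8% of the mitochondrial genes, with intervals that do not overlap in this list. The pooled list, drawn from the same replicates, called 53.3% (42.6 to 63.7) beside 21.9% (13.1 to 33.1), also without overlap. In the replicates' own lists the intervals overlap. Replicate 1 called 33.7% (24.2 to 44.3) beside 21.9% (13.1 to 33.1) of members. Replicate 2 called 29.3% (20.3 to 39.8) beside 15.1% (7.77 to 25.4). The difference was not tested. The median conservative signal of the called cytosolic genes is lower than the 200 of the called members. Respiratory chain genes were called at 8 of 86 (9.30%, interval 4.10 to 17.5). Genes for the rest of mitochondrial translation and for expression of mitochondrial DNA were called at 3 of 41 (7.32%, interval 1.54 to 19.9), and tko and bonsai, mitochondrial ribosomal proteins under other symbols, at 0 of 2. For tko and bonsai the interval, 0 to 84.2 from 2 genes, is too wide to compare. The intervals of the respiratory chain genes and of the group of 41 overlap that of the members. The 3 called genes were mRF1, a mitochondrial release factor (signal 636.9, 300 bp upstream, 328.4 and 288.9 in the replicates), PolrMT, the mitochondrial RNA polymerase (632.4, 238 bp downstream, 326.8 and 286.2), and mtSSB, the single-strand binding protein of mitochondrial DNA (122.7, 319 bp upstream, 66.2 and 52.2). Signals at mRF1 and PolrMT were above the 602.5 of mRpS10.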

How the data were processed

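Chromatin of 2 biological replicates was sheared by sonication to 200 to 800 bp, per the labels. The authors deposited peak lists on dm6 with a signal per peak and, in the ranked lists, −log10 of the global IDR, which was at least 2 for thresholded peaks (an IDR of at most 0.01). No source names the aligner or the peak caller. A further 2 columns of per-sample signals in the conservative ranked list were not used.

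Transcript starts came from Ensembl release 115, and sequence from the RefSeq copy of the same assembly. Each summit was given to every gene with a start within 500 bp, and the strongest per gene was kept. Members were described by counts and medians beside all protein-coding genes. There is no group to compare and no test was made. Intervals are exact binomial 95% intervals, treat genes as independent and cover counting error only. The counting was tested on simulated data with planted summits.

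The members, gene lists, motifs and alternatives were chosen with earlier results of these data known. The genes named are members in any thresholded list, the 10 other members with the highest conservative ranked signal, those with no ranked call, their nearest neighbours, and genes of mitochondrial translation or mitochondrial DNA expression with a conservative summit. mRpS30, mRpL21, mRpL36, mRpS5, mRpL27 and RpL27A were named after their values were seen. Calculations used Python 3.11.15, numpy 2.4.6, pandas 2.3.3 and scipy 1.17.1, and plots matplotlib 3.10.9.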

Additional observations from a re-analysis of the deposited data

How the results depend on the processing

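The count of 13 called members was 8 (11.0%, beside 12.1% of all protein-coding genes) with summits within 250 bp of a start, and 5 (6.85%, beside 12.9%) when a summit counted only for the gene with the nearest start. The difference from all genes, 1.96 percentage points, was -1.16 within 250 bp, -0.703 within 1000 bp and -6.03 with the nearest start only, so its direction depends on these choices. Other alternatives gave counts of 10 to 16. With a single replicate's list the count was 11 to 16, the difference 4.47 to 8.69, the median signal 90.9 to 117 on those lists' own scales, the count of summits with CAACAAC 3 and of those at or under 25% GC 6. Divergent neighbours within 250 bp were annotated for 34.2% of members, beside 15.6%. The count at or under 25% GC was 0 in windows of 100 bp to each side, beside 0.838% of promoter summits. The limit on GC and its alternatives were chosen after seeing the data. The place of summits between divergent starts and the position of CAGCTG near starts were also measured only after seeing the data. The cause of the changes under these alternatives was not tested beyond the construction of each alternative. No paired analysis was possible because there is 1 group. Without read depth, a gene outside the lists cannot be called unbound.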
